A study of Homo sapiens with 6 samples.

Results

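The integrated stress response genes described here are ATF4, ATF3, ATF5, DDIT3 (CHOP), TRIB3, CHAC1, CEBPB, CEBPG, ASNS and NUPR1. They were chosen by name, as every probe set whose annotated gene symbol is one of these 10, and they make up 10 of the 19775 genes measured. In all, 18 probe sets carried one of these symbols, none of them together with another symbol, and each gene was read from its brightest probe set over the 6 arrays. The cells were HCT116, an established line from a human colorectal carcinoma, profiled on 6 Affymetrix arrays. In 3 arrays the cells had received 30 nM of a siRNA pool against CDK4 and 30 nM of a siRNA against CDK6, the kinases that partner D-type cyclins in G1. In the other 3 arrays they had received 30 nM each of a non-targeting pool and a negative control siRNA. All cells were transfected with a lipid reagent and analysed after 96 h. The study compares these groups, and its title names MYC in the response to CDK4/6 inhibition.

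In the integrated stress response, kinases that sense amino acid shortage, misfolded protein in the endoplasmic reticulum, double-stranded RNA or mitochondrial and haem stress phosphorylate the translation factor eIF2. General translation then falls, while the mRNA of the bZIP factor ATF4 is translated better through short open reading frames ahead of its coding sequence. ATF4 pairs with C/EBP proteins on C/EBP-ATF composite sites and induces genes of amino acid supply and further stress factors, among them ATF3 and CHOP. Because ATF4 and ATF5 are controlled largely at translation, RNA levels such as these do not report their protein.

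Expression values are on a log2 scale after robust multi-array averaging (RMA) by the submitters. Changes are CDK4/6 siRNA minus control siRNA, so that a change of 1 is a doubling, and a gene was called at a limma adjusted p under 0.05 over all 19775 genes. CDK6 and CDK4 were lower by 1.56 and 0.69 in the CDK4/6 siRNA arrays, and MYC was higher by 0.42, each with no overlap between groups. Arrays correlated at 0.998 within groups and at 0.991 to 0.994 between groups. RNA integrity, read as the 3′ minus 5′ difference of the control probe sets, averaged 0.087 for GAPDH in CDK4/6 siRNA arrays and 0.077 in control arrays (exact permutation p = 0.8, n = 3 each). For ACTB the difference was larger in both groups, 1.43 in CDK4/6 siRNA arrays and 1.45 in control arrays (exact permutation p = 0.9). Hybridisation spike-ins averaged 10.15 in CDK4/6 siRNA arrays and 10.25 in control arrays. Scaling the arrays to the spike-ins therefore moves the median change of all genes to 0.11, and the share of calls that are higher to 78.2%, against 52.0% as deposited. Changes are given relative to the bulk of genes, as RMA leaves them. Of 7 epithelial marker genes, the lowest mean was 9.50, while the 14 leukocyte, fibroblast and endothelial marker genes had means of 3.38 to 6.26. Of the 7 epithelial genes 2 were called higher and 2 lower (57.1%). Of those 14 other markers 1 passed the test as deposited, the leukocyte gene ITGAM (-0.23), and its call held under 11 of 19 alternatives.

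DDIT3, ATF3 and CEBPB were lower and ATF5 was higher in CDK4/6 siRNA cells, while ATF4 itself did not pass the test. In bulk cultures such as these, fewer cells that express a gene and less of its RNA per cell cannot be told apart. In all, 4 of the 10 genes were called (40.0%), against 26.8% of all genes. The 3 lower genes compare with 12.9% of all genes called lower, and the 1 higher gene with 14.0% called higher. The 3 arrays of each group did not overlap in 5 of the 10 genes, against 40.9% of all genes: 2 lay higher, against 20.6% of all genes, and 3 lower, against 20.3%. The median change of the 10 genes was 0.0057, against -0.0011 over all genes. With 10 genes each call moves these shares widely, so they are not read as a result about the set. The results below concern single genes. After scaling to the spike-ins, 3 of the 10 were called higher and 3 lower, against 23.9% of all genes called higher and 6.68% lower. The counts with the spike-in scaling given below are to be read against these shares. With the probe sets of each gene averaged, 12.9% of all genes were called higher and 11.0% lower, and on plain-name probe sets 12.1% were called higher and 10.7% lower.

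**Figure D1:**
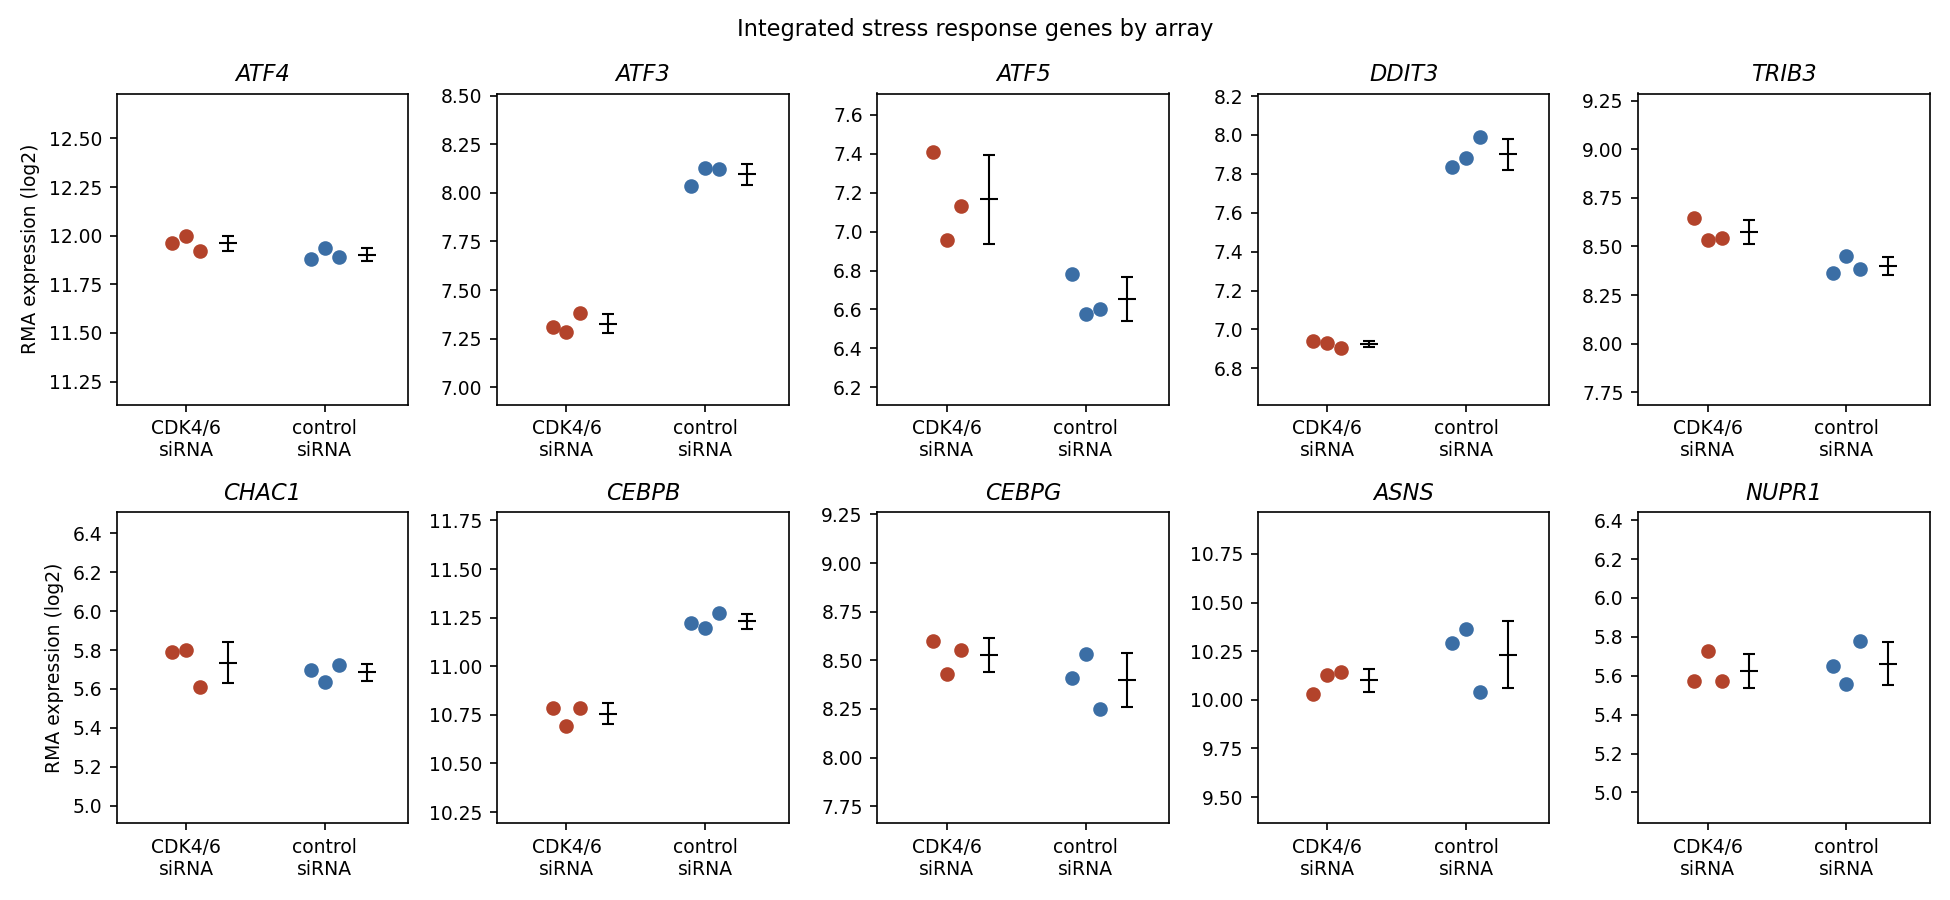
RMA expression (log2) of the 10 genes in each array, CDK4/6 siRNA on the left and control siRNA on the right of each panel; points are arrays, bars the mean and SD of 3 arrays, and each panel spans the same 1.6 log2 units. The DDIT3, ATF3 and CEBPB points of the CDK4/6 siRNA arrays lie below all control points, those of ATF5 and TRIB3 lie above them, and the groups overlap for the remaining genes.

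The promoter windows below show which of these genes carry the letters that ATF4 and its C/EBP partners recognise near an annotated start. RefSeq promoter windows of GRCh38.p14, from 250 bases before a start to 50 after it, were found for 9 of the 10 genes, 19 windows in all, and not for NUPR1. The composite core TGATGNAA was searched on both strands, as were the cyclic AMP response element TGACGTCA, bound by ATF and CREB dimers, and the AP-1 site TGANTCA, bound by FOS and JUN dimers. No searched motif overlapped another in these windows. Each window is printed 5′ to 3′ on the gene's strand, with the match in capitals. The first 4 hold the composite core and the last, of the gene that fell most, holds an AP-1 match.
ASNS promoter, chr7:97872359-97872658, minus strand: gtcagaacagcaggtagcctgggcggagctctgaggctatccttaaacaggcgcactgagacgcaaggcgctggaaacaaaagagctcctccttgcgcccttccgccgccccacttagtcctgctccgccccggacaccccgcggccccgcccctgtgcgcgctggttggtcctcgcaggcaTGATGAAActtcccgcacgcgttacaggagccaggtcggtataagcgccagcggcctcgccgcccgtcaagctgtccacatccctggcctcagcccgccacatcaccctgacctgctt
CEBPG promoter, chr19:33373863-33374162, plus strand: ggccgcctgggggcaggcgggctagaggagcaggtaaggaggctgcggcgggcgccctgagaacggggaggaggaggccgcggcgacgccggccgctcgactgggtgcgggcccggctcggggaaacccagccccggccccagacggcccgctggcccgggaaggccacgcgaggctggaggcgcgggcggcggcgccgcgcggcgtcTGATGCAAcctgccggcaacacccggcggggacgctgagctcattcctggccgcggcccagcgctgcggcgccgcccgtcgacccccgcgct
CHAC1 promoter, chr15:40953221-40953520, plus strand: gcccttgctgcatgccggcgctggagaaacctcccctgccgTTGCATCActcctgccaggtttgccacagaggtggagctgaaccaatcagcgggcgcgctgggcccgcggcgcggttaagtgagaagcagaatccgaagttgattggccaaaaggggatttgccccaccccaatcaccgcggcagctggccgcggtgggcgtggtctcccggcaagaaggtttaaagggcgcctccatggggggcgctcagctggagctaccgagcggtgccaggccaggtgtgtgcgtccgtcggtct
ATF3 promoter, chr1:212565157-212565456, plus strand: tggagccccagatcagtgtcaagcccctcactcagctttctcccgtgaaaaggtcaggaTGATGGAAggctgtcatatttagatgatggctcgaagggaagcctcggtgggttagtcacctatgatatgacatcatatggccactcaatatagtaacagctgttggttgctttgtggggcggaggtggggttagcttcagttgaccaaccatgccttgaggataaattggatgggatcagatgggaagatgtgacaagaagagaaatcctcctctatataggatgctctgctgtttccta
DDIT3 promoter, chr12:57520468-57520767, minus strand: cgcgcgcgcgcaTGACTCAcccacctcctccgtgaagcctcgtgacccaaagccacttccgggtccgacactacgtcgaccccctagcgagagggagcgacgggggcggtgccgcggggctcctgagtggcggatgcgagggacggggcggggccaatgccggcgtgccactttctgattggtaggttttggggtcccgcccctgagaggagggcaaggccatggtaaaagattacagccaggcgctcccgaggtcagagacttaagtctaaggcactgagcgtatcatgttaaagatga

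The composite core was present in 4 of the 19 windows, against 3.62% of 35116 windows of all genes. It began 68 bases upstream of a start in ASNS, 42 in CEBPG, 209 in CHAC1 and 191 in ATF3. ASNS, CEBPG and ATF3 each have another window without the core, that of ATF3 at chr1:212614768-212615067, far from the window shown. ASNS, CEBPG and CHAC1 did not pass the test described above, and ATF3 fell. The AP-1 letters were present in 3 of the 19 windows, against 7.71% of all windows: both DDIT3 windows, which lie 3 bases apart, and 1 window of ATF5. The match began 238 bases upstream of the start in the DDIT3 window shown. The cyclic AMP response element was present in 0 of the 19 windows and in 1.85% of all windows. The amino acid response element described for human DDIT3 lies upstream of the window. A match is a description of letters, and which factors bind these stretches was not measured.

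ATF4, the central bZIP factor of the response, was bright and nearly level on its only probe set (200779_at). Its values were 11.96, 12.00 and 11.92 in CDK4/6 siRNA arrays, against 11.88, 11.94 and 11.89 in control arrays. The groups overlapped, and all 6 values lay within 0.12 of each other. The change was 0.058 (SE 0.054, 95% interval -0.064 to 0.18, limma adjusted p = 0.51). Over the 19 alternatives of processing the ATF4 change ran from 0.014 with quantile normalization to 0.17 with the spike-in scaling, with limma adjusted p from 0.096 to 0.89.

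DDIT3, which encodes CHOP, a C/EBP-family factor that promotes cell death in prolonged stress, fell most of the 10. It had 6.94, 6.93 and 6.91 in CDK4/6 siRNA arrays, against 7.83, 7.88 and 7.99 in control arrays. The CDK4/6 siRNA arrays were nearly identical, with an SD of 0.018, against 0.079 in control arrays. The change was -0.98 (SE 0.059, limma adjusted p = 3.64e-05), or 50.8% of the control level. Only 67 of the 19775 genes had a more negative change. DDIT3 rests on 1 probe set (209383_at), and its gene overlaps MARS1 in the RefSeq annotation; a part of MARS1 RNA in the signal was not tested.

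ATF3, a stress-induced factor of the ATF and CREB family that often acts as a repressor, fell on its brightest probe set (202672_s_at). Its values there were 7.31, 7.29 and 7.38 in CDK4/6 siRNA arrays, against 8.03, 8.13 and 8.12 in control arrays, and the groups lay far apart relative to their spread. The change was -0.77 (SE 0.058, limma adjusted p = 7.40e-05), or 58.7% of the control level. The other ATF3 probe sets did not follow to the same extent. The one at a mean level of 6.76 gave 6.71, 6.56 and 6.70 in CDK4/6 siRNA arrays and 6.89, 6.84 and 6.88 in control arrays. Its change of -0.22 did not pass the test, although the groups did not overlap (limma adjusted p = 0.052 over 54613 probe sets, of which 17.0% were called). The third, at 6.58, overlapped between groups and gave 0.029 (95% interval -0.22 to 0.28). This one alone carries a plain name, that is, without the suffix for probes shared between transcripts. With the mean of the 3 probe sets the ATF3 change was -0.32 (limma adjusted p = 0.0023).

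ATF5, an ATF4 relative that is also induced by translation and drives genes of mitochondrial protein quality, was higher in CDK4/6 siRNA cells. Its brightest probe set (204998_s_at) had 7.41, 6.96 and 7.13 in CDK4/6 siRNA arrays, against 6.78, 6.58 and 6.60 in control arrays. The groups did not overlap, but the arrays varied more than for the other called genes, with SDs of 0.23 in CDK4/6 siRNA arrays and 0.11 in control arrays. The change was 0.51 (SE 0.11, limma adjusted p = 0.0083), or 1.43-fold. A second probe set, at a mean level of 5.47, also rose, with 5.90, 5.71 and 5.60 in CDK4/6 siRNA arrays and 5.23, 5.27 and 5.10 in control arrays. Its change was 0.54 (limma adjusted p = 0.0027 over probe sets). The remaining 2 ATF5 probe sets were level, at -0.0019 and -0.027, with 95% intervals of -0.15 to 0.15 and -0.18 to 0.13. The ATF5 call was lost without variance moderation (adjusted p = 0.091), and the mean of its 4 probe sets gave 0.26 (limma adjusted p = 0.020). In the RefSeq annotation ATF5 overlaps IL4I1 and NUP62, and a part of their RNA in the signal was not tested.

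CEBPB, a C/EBP protein that pairs with ATF4 on composite sites and also acts in inflammation and differentiation, fell. It had 10.79, 10.69 and 10.79 in CDK4/6 siRNA arrays, against 11.22, 11.20 and 11.27 in control arrays, without overlap. The change was -0.47 (SE 0.056, limma adjusted p = 0.000424), or 72.0% of the control level, on its only probe set (212501_at). The gene overlaps CEBPB-AS1, whose part in the signal was not tested. Its relative CEBPG, another C/EBP partner of ATF4, ranged from 8.43 to 8.60 in CDK4/6 siRNA arrays and from 8.25 to 8.53 in control arrays. CEBPG overlapped between groups and gave 0.13 (95% interval -0.056 to 0.31, limma adjusted p = 0.31). Its second probe set, at a mean level of 8.04, gave -0.059 and did not pass.

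**Figure D2:**
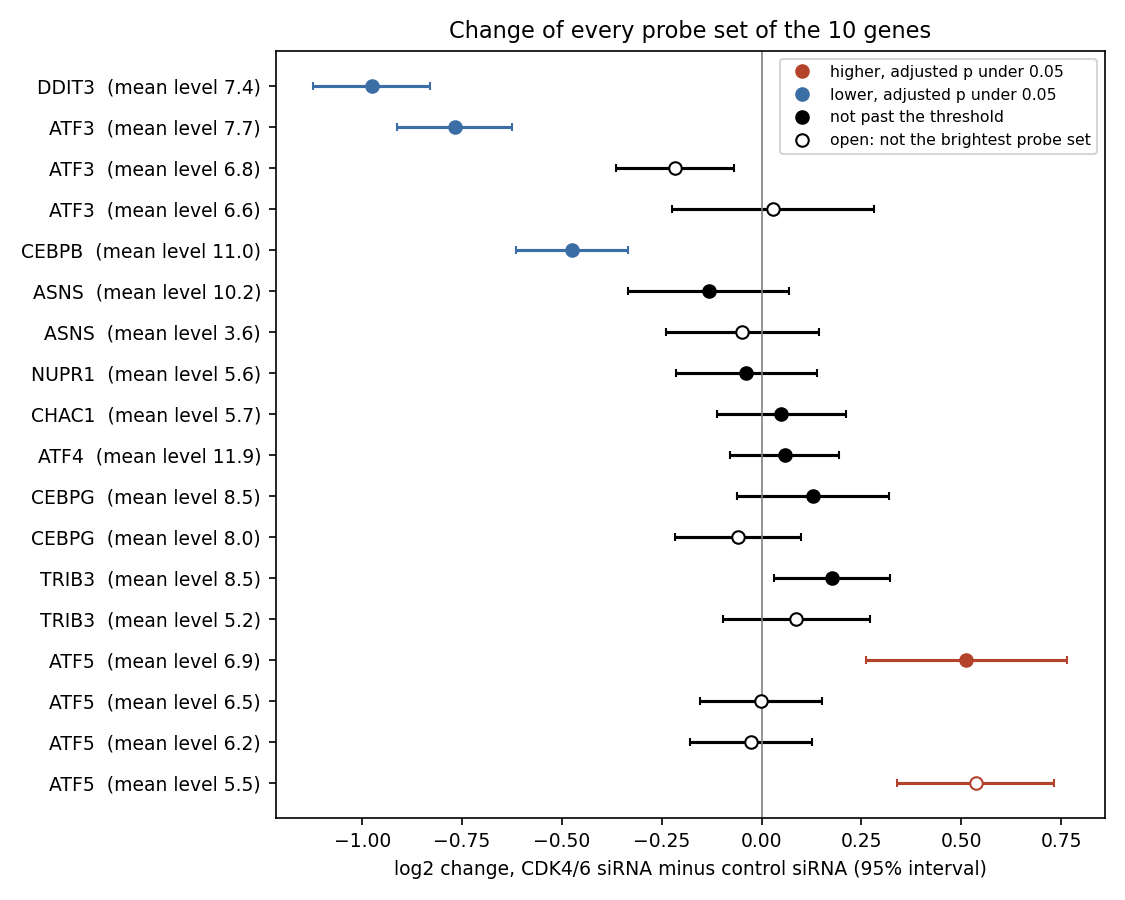
Log2 change (CDK4/6 siRNA minus control siRNA) of all 18 probe sets with 95% intervals, ordered by the change of each gene's brightest probe set; filled points are the brightest probe sets, and the mean level over the 6 arrays stands beside each name. The 3 ATF3 probe sets run from -0.77 to 0.029, and of the 4 ATF5 probe sets 2 lie near 0.5 and 2 near 0.

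None of the 4 remaining genes, TRIB3, ASNS, CHAC1 and NUPR1, passed the test. TRIB3, a pseudokinase induced by ATF4 and CHOP that feeds back on both, had 8.65, 8.53 and 8.55 in CDK4/6 siRNA arrays, against 8.36, 8.45 and 8.38 in control arrays. All 3 CDK4/6 siRNA values lay above the controls, yet the change of 0.18 (SE 0.059, 95% interval 0.043 to 0.31) just missed the threshold (limma adjusted p = 0.055). It passed under 4 alternatives, with adjusted p between 0.0069 and 0.043: median centring, the spike-in scaling, leaving out the dimmest genes, and limma's trend and robust options. A second TRIB3 probe set at a mean level of 5.22 gave 0.087 and overlapped between groups.

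ASNS, which makes asparagine and is a classical ATF4 target, had 10.03, 10.13 and 10.14 in CDK4/6 siRNA arrays, against 10.29, 10.37 and 10.04 in control arrays. Control replicate 3 lay within the CDK4/6 siRNA range and the other two controls above it. The change was -0.13 (95% interval -0.33 to 0.064, limma adjusted p = 0.32). Without control replicate 3 it was -0.23 and passed (limma adjusted p = 0.042), and with it left out 4 of the 10 genes were called lower. Without control replicate 2 the change was -0.066. ASNS overlaps the annotated gene CZ1P-ASNS, whose RNA was not told apart here.

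CHAC1, which degrades glutathione, ranged from 5.61 to 5.80 in CDK4/6 siRNA arrays and from 5.64 to 5.72 in control arrays, a change of 0.050 (95% interval -0.10 to 0.20). NUPR1, a small chromatin protein of the stress response, ranged from 5.57 to 5.72 in CDK4/6 siRNA arrays and from 5.56 to 5.78 in control arrays, a change of -0.038 (95% interval -0.21 to 0.13). Both overlapped between groups (limma adjusted p = 0.66 and 0.77). Their levels fall in the range of the 14 markers of other cell types above. No detection calls were used, so the presence of either transcript was not tested.

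A difference between 2 genes within an array is unchanged when all values of that array are moved by a constant, as in median centring or the spike-in scaling. Relative to ATF4, DDIT3 changed by -1.03 (SE 0.052), ATF3 by -0.83 (SE 0.056) and CEBPB by -0.53 (SE 0.064). ATF5 changed by 0.45 (SE 0.16) and TRIB3 by 0.12 (SE 0.046) relative to ATF4. For these 5 genes the exact permutation p was 0.1, the smallest that 3 arrays against 3 allow, and 0.18 after adjustment over the 9 genes set against ATF4. For ASNS (-0.19), NUPR1 (-0.096), CEBPG (0.071) and CHAC1 (-0.0082) it was between 0.2 and 0.7. Quantile normalization, which moves bright and dim genes differently, gave -0.80 for ATF3, 0.50 for ATF5 and 0.13 for TRIB3, and turned CHAC1 to 0.051. In DDIT3, ATF3, CEBPB, ATF5 and TRIB3 this difference did not overlap between the groups, but 3 arrays against 3 cannot take such a test below 0.1.

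The genes that act upstream of ATF4 were described next, as a list of 22 eIF2 kinases, eIF2 and eIF2B subunits and eIF2 phosphatase parts and regulators. Of these 9 rose and 4 fell (59.1% called, against 26.8% of all genes), with a median change of 0.13. The list holds no dim genes, with means of 7.10 to 12.82. With the dimmest 25% of all genes left out, 5663 of 14831 were called, a larger share than 26.8%. That larger share is the closer background here, and for the synthetases (lowest mean 8.73) and the IRE1 and ATF6 branches (7.43) below. With the spike-in scaling 11 rose and 1 fell. EIF2AK2, the kinase PKR that senses double-stranded RNA, averaged 9.42 ± 0.06 in CDK4/6 siRNA arrays and 8.93 ± 0.02 in control arrays (SD, n = 3 each), a rise of 0.49. A further EIF2AK2 probe set, at a mean level of 8.34, gave 0.34 and was called higher. The dimmest, at 5.85, gave 0.20, overlapped between groups and did not pass. EIF2AK3, the kinase PERK that senses misfolded protein in the endoplasmic reticulum, averaged 8.65 ± 0.08 in CDK4/6 siRNA arrays and 9.26 ± 0.13 in control arrays, a change of -0.60. Its other probe set, at a mean level of 4.60, gave 0.0090. EIF2B1 and EIF2B2, subunits of the exchange factor that phosphorylated eIF2 blocks, rose by 0.65 and 0.47. All 4 had limma adjusted p between 0.000365 and 0.000654.

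Genes of amino acid supply went both ways. Of 12 measured genes of amino acid synthesis and one-carbon metabolism that ATF4 is known to induce, 1 rose and 4 fell (41.7% called), with a median of -0.047. With the spike-in scaling 2 rose and 2 fell, and without control replicate 1 the number that rose was 2. PSAT1, an aminotransferase of serine synthesis, averaged 10.76 ± 0.02 in CDK4/6 siRNA arrays and 10.05 ± 0.22 in control arrays (SD, n = 3 each), a rise of 0.71. A second PSAT1 probe set rose by 0.74. PHGDH, the first enzyme of the same pathway, fell by 0.35, mitochondrial PCK2 by 0.45 and CTH, which makes cysteine, by 0.36. The CTH call was lost with the spike-in scaling (-0.25) and without variance moderation. Limma adjusted p lay between 0.000706 and 0.0066 for the 4 named genes.

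Of 11 amino acid transporters induced by ATF4, 3 rose and 1 fell (36.4% called), with a median of 0.032, and with the spike-in scaling 4 rose and 0 fell (0 also at an unadjusted p under 0.05 in limma). On plain-name probe sets, which 7 of the genes have, 1 rose. SLC7A5 and SLC3A2, the chains of a transporter for large neutral amino acids, rose by 0.61 and 0.59, and SLC36A1, a lysosomal amino acid exporter, by 0.61. A second SLC36A1 probe set, at a mean level of 5.51, gave -0.029. SLC38A2, which imports small neutral amino acids, fell by 0.25 on its brightest probe set and by 0.28 and 0.30 on the others, but its call was lost with the spike-in scaling (-0.14). SLC7A5 averaged 10.47 ± 0.05 in CDK4/6 siRNA arrays and 9.86 ± 0.17 in control arrays (SD, n = 3 each). For these 4 transporters limma gave adjusted p from 0.000548 to 0.011.

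Of 13 measured genes in a list of cytosolic aminoacyl-tRNA synthetases and the tRNA exporter XPOT, 5 rose and 0 fell in limma (38.5% called), with a median of 0.12. The share called is close to that of all genes without the dimmest 25%, 5663 of 14831, of which 2915 were higher and 2748 lower. At an unadjusted p under 0.05 in limma, 0 of the 13 were lower, and 7 of them rose with the spike-in scaling. On plain-name probe sets, which 8 of the genes have, 3 rose. WARS1, which charges tryptophan tRNA and is also induced by interferon, averaged 9.11 ± 0.03 in CDK4/6 siRNA arrays and 8.36 ± 0.19 in control arrays (SD, n = 3 each), a rise of 0.75. NARS1, IARS1 and TARS1, the enzymes for asparagine, isoleucine and threonine, rose by 0.42, 0.38 and 0.28. TARS1 gave 0.083 with the mean of its 2 probe sets and lost its call. In limma the 4 synthetases had adjusted p of 0.00047 to 0.012.

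**Figure D3:**
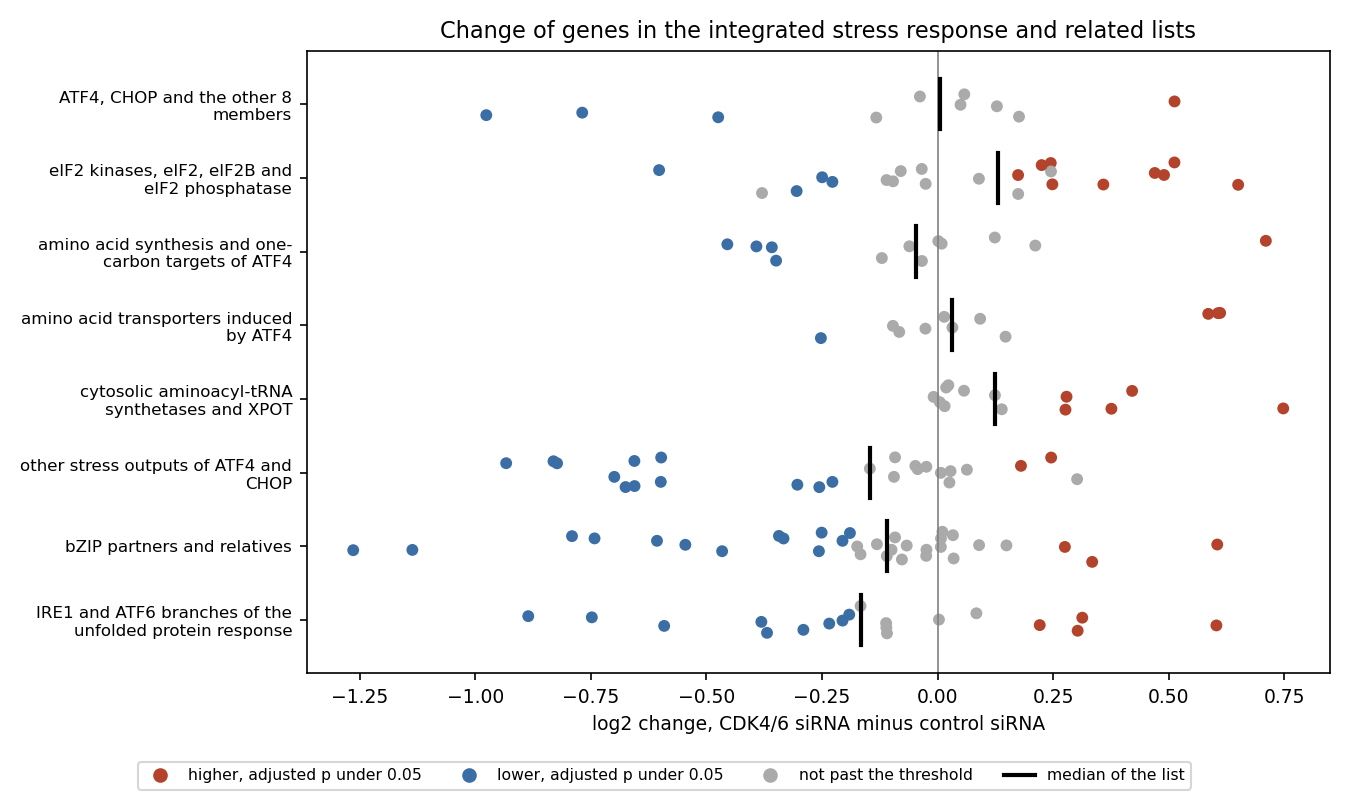
Log2 change (CDK4/6 siRNA minus control siRNA) of each measured gene in the 10 members and 7 related lists; points are genes, coloured by whether they passed the test, and black bars are list medians. The list medians run from -0.17 for the IRE1 and ATF6 branches to 0.13 for the upstream genes, and called synthetases lie on the higher side only.

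A list of other outputs of ATF4 and CHOP shares PPP1R15A, which fell, with the upstream list. Of its 25 measured genes 12 fell, 2 rose and 11 did not pass (56.0% called), with a median of -0.15. With the spike-in scaling 9 fell and 3 rose, with a median of -0.038, and on plain-name probe sets, which 17 of the genes have, 6 fell and 1 rose. The 2 higher calls were 0 or 1 when any single array other than control replicate 3 was left out. DDIT4, an inhibitor of mTOR complex 1, averaged 11.88 ± 0.03 in CDK4/6 siRNA arrays and 12.81 ± 0.10 in control arrays (SD, n = 3 each), a change of -0.93. VEGFA, the angiogenic factor, gave -0.70, and ERO1A, the oxidase that drives disulfide formation in the endoplasmic reticulum, gave -0.66. GADD45B, a stress-induced regulator of MAP kinases, also gave -0.66, while its only plain-name probe set gave 0.015. Its remaining probe sets gave -0.44 and -0.48, both called lower. DDIT4, VEGFA and ERO1A are also known targets of hypoxia-inducible factors, and the part of each pathway was not tested. For DDIT4, VEGFA, ERO1A and GADD45B limma adjusted p lay between 5.90e-05 and 0.000235.

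Further bZIP factors can pair with the members or compete for their sites. Their list also holds CEBPZ, which bears a C/EBP name but is not a bZIP factor and was called higher (0.33). Of the 33 measured genes in this list 13 were lower and 3 higher, CEBPZ included (48.5% called), with a median of -0.11. With the spike-in scaling 9 were lower and 4 higher, with a median of -0.0016, and with probe sets averaged 8 were lower and 3 higher. FOS, a subunit of AP-1, averaged 6.41 ± 0.17 in CDK4/6 siRNA arrays and 7.67 ± 0.23 in control arrays (SD, n = 3 each), a change of -1.26. DBP, a circadian factor, changed by -1.14, NFIL3, which binds the same sites as DBP as a repressor, by -0.79, and MAFF, a small MAF protein, by -0.74. The other DBP probe set, the plain-name one at a mean level of 5.69, gave -0.012. For the 4 factors named, limma adjusted p was 2.08e-05 to 0.000178.

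The other arms of the unfolded protein response, which start at IRE1 and ATF6, had 9 of 19 measured genes lower and 4 higher (68.4% called), with a median of -0.17. Of all genes without the dimmest 25%, 5663 of 14831 were called, 2748 of them lower and 2915 higher. In the list, 4 genes were lower and 4 higher with the spike-in scaling, and 5 and 4 with probe sets averaged. On plain-name probe sets, which 14 of the list's genes have, 5 were lower and 3 higher. The balance of this list thus depends on both the scaling and the choice of probe set. ERN1, which encodes IRE1, averaged 7.06 ± 0.07 in CDK4/6 siRNA arrays and 7.81 ± 0.02 in control arrays (SD, n = 3 each), a change of -0.75. Its 2 other probe sets gave -0.15 and 0.053 and did not pass. EDEM1, DNAJB9 and HERPUD1, which act in folding and disposal of proteins of the endoplasmic reticulum, changed by -0.89, -0.59 and -0.37. Limma adjusted p for the 4 ranged over 8.22e-05 to 0.0016.

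As a description over 6 arrays, the genes whose values followed DDIT3 most closely were SUCO, CDC42EP3 and GAPDH, with Pearson correlations above 0.999. Their changes were -0.46, -0.20 and -0.17. The arrays form 2 clusters, the groups, and 1337 of 11150 genes with a mean of at least 6 correlated with DDIT3 above 0.95.

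**Figure D4:**
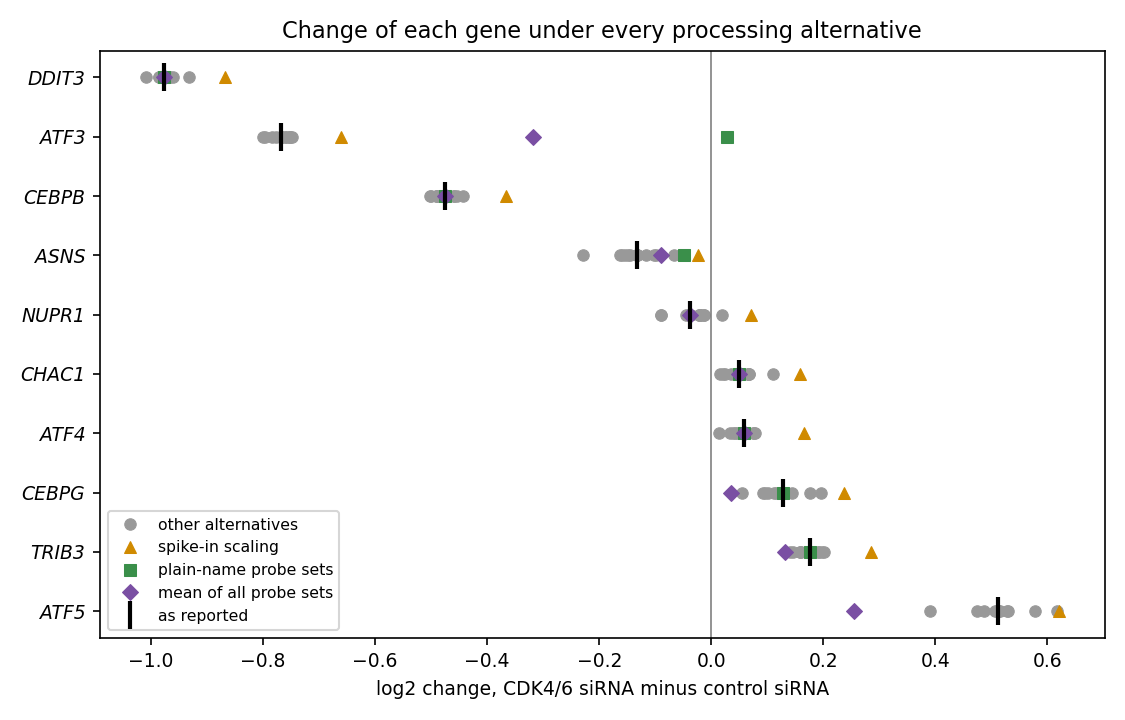
Log2 change (CDK4/6 siRNA minus control siRNA) of each of the 10 genes as reported (black bar) and under up to 19 alternatives of processing or of arrays used (points). DDIT3 and CEBPB stay on the lower side and ATF5 on the higher side throughout, ATF3 ranges from -0.80 to 0.029 depending on the probe set, and NUPR1 lies on both sides of 0.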

How the data were processed

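The values are log2 expression per probe set, made by the authors with RMA per the submitters' processing notes, from single-channel arrays. RMA makes the distributions of the arrays alike, which hides any change in RNA content per cell, and it compresses changes of dim probe sets. The RMA version is not given in the sources used here. Of 54675 deposited probe sets, 62 were array controls. Names came from the platform annotation, with 41097 probe sets naming 1 gene, 1801 naming several and 11777 naming none. Of 41091 probe sets used, 41037 matched a RefSeq gene of GRCh38.p14 by identifier and 0 symbols were updated. Genes were represented by their brightest probe set.

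Changes were fitted in R 4.3.3 with limma 3.58.1 (lmFit, then eBayes) on group alone, 3 arrays against 3, and Benjamini-Hochberg adjustment over all genes or, for single probe sets, over 54613 probe sets. This fit was checked on simulated arrays in which a small share of genes, known in advance, were raised and none lowered. In the real arrays many genes were called in both directions, so the check covers the running of the fit and not its error rates here. The labels call the arrays biological replicates without naming separate cultures, so p-values reflect only how far these arrays spread, which may be technical, and their number limits the precision. The 10 genes and the lists were chosen with earlier results of these data known. All 10 were named, and from each of the 7 related lists the 4 genes with the smallest adjusted p, while the marker lists are given as counts and levels. Some genes are counted in more than 1 list, so the list counts are not independent. PPP1R15A is in the upstream and output lists, and CEBPD and JDP2 in the output and bZIP lists. ATF6 and XBP1 are in the bZIP list and that of the IRE1 and ATF6 branches. List genes without a probe set of 1 symbol were not used, among them GPT2, MARS1, BBC3, ATF1, MAFK and SYVN1. The 19 alternatives covered scaling between arrays, filters, choice of probe set, variance model, threshold, the replicate number as a block and each array left out. Figures were drawn with matplotlib 3.10.9.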

Additional observations from a re-analysis of the deposited data

How the results depend on the processing

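Of the 4 called genes, DDIT3 (-1.01 to -0.87) and CEBPB (-0.50 to -0.37) kept direction and call under all 19 alternatives. ATF3 kept them under 18 and turned to 0.029 with plain-name probe sets, which test another probe set, and ATF5 kept its call in 17 of 18. The count of the 10 genes called higher, 1 as reported, was 2 with median centring, with the dimmest 25% left out and with trend and robust options, 3 with the spike-in scaling (where CEBPG gave 0.24), and 0 without variance moderation. With plain-name probe sets 2 genes were called and 0 of them higher, since ATF5 and NUPR1 have no such probe set. Without single arrays 3 or 4 genes were called lower and 1 higher, and 4225 to 4726 genes of all were called. At a threshold of 0.01, 3326 of all genes were called, and without variance moderation 4036, against 5307. NUPR1, not called, turned to 0.070 after spike-in scaling, and ran from -0.090 without control replicate 2 to 0.020 without control replicate 3. GADD45B turned to 0.015 with plain-name probe sets, where another of its probe sets is read. The labels do not say whether the replicate numbers pair the arrays. Same-numbered arrays' deviations correlated at -0.010, -0.12 and -0.0066, which cannot settle it with 3 arrays a group. With the replicate block 4738 genes were called, and among the 10 the same 4 genes, 3 lower and 1 higher. The brightness of CHAC1 and NUPR1 limits what their values can show.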
